A study of Caenorhabditis elegans with 15 samples.

Results

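The genes of the methionine and S-adenosylmethionine cycle were followed in whole adult nematodes raised with a cyanobacterial culture filtrate or with lake water. The members were the 10 genes metr-1, mtrr-1, mthf-1, sams-1, sams-3, sams-4, pmt-1, pmt-2, ahcy-1 and cbs-1, found by their symbol in the array annotation. Of the 10, 9 had probe sets that carried their symbol alone, 12 probe sets in all, with 3 for sams-1 and 2 for sams-4. Whether the sams-1 and sams-4 probe sets also bind transcripts of other sams genes could not be checked without probe sequences. The gene sams-3 was represented only by a probe set shared with sams-2, whose values belong to neither gene alone and are given as such. All 12 probe sets, and the shared one, lay above the filter on low signals, among 13529 probe sets tested of 22548 that are not array controls.

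All worms were Caenorhabditis elegans of the wild-type laboratory strain N2, grown at 20 °C on agar with Escherichia coli OP50 as food, exposed throughout life and harvested as day 1 adults. The 5 groups of 3 biological replicates were a filtered Microcystis aeruginosa batch culture, added at 40% of its original content of AOBr (in the usual reading, adsorbable organic bromine), Z-medium as its control, filtered October and August samples of Lake Stößensee in Berlin, each at 200% of the original AOBr content, and water, with which the lake samples are compared. Filtration and lyophilisation are described for the exposures but not stated for either control, and no batch is labelled. RNA of whole worms was measured on 1-colour Affymetrix arrays, so fewer cells of a type and less RNA per cell cannot be told apart.

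In this cycle methionine is joined to adenosine to give S-adenosylmethionine (SAM), the methyl donor of most methylation reactions. Donation leaves S-adenosylhomocysteine, which is split to homocysteine, and homocysteine is either methylated back to methionine, by an enzyme that needs vitamin B12 and a folate methyl group, or passed on toward cysteine. In C. elegans a large share of SAM goes into phosphatidylcholine, a main lipid of membranes and lipoproteins, through phosphoethanolamine methylation. The worm takes its vitamin B12 from bacteria.

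Some arrays stood apart from the rest. The first principal component of the tested probe sets, with 38% of the variance, put replicate 1 of Z-medium, October, August and water at -28.9 to -21.8 and replicates 2 and 3 of these 4 groups at -0.20 to 13.8. Culture replicate 1 lay among these at 11.96, and culture replicates 2 and 3 lay beyond them at 26.7 and 36.1. Those 2 culture arrays also had the lowest mean log2 deviation of the members, at -0.12 and -0.18, against 0.01 in culture replicate 1. This mean took the brightest probe set of each of the 9 genes. Single genes could differ from it: mtrr-1 had its lowest signal in culture replicate 1 (1979, against 2089 and 1992 in replicates 2 and 3). In Z-medium the same mean was 0.07 to 0.08 while the component ran from -28.9 to 6.01. Replicate 1 had the highest mean in water, October and August, as in the culture. Replicates 1, 2 and 3 were at 0.04, -0.02 and -0.01 in water and at 0.04, -0.06 and -0.04 in October. In August they were at 0.08, 0.05 and -0.01. By limma, 18.1% of the 13529 probe sets differed between replicate 1 and the other replicates across groups. Of the 12 member probe sets 2 did, both higher in replicate 1: metr-1 (log2 difference 0.15, adjusted p = 0.0328) and the dimmest sams-1 probe set (0.34, adjusted p = 6.35e-04). Values without the 5 replicate 1 arrays are given where leaving them out changes a call.

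**Figure D1:**
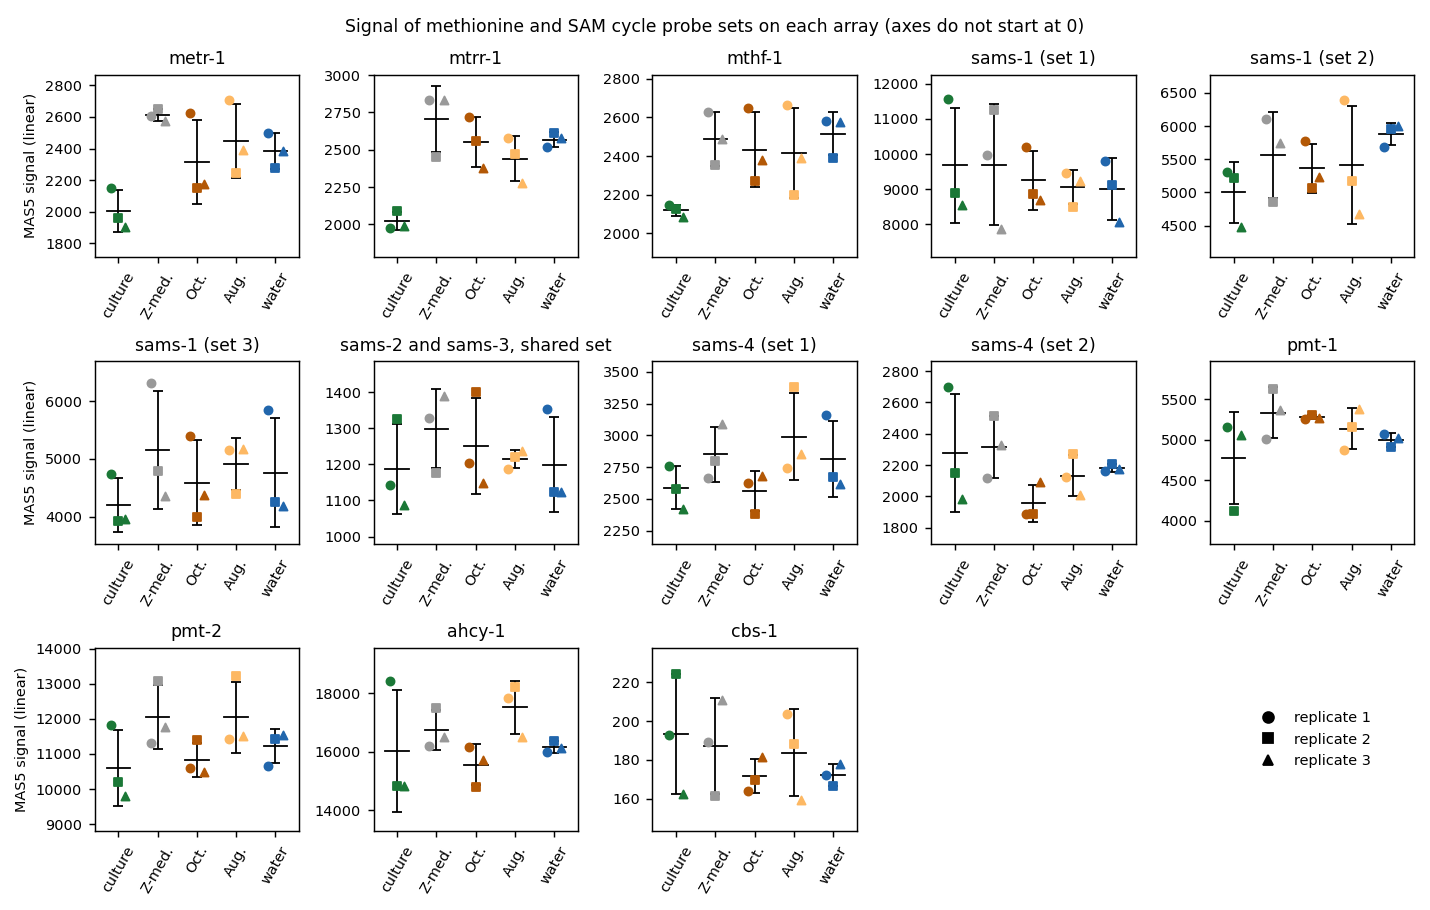
Linear MAS5 signal of each member probe set and of the shared sams-2 and sams-3 probe set on the 15 arrays, 1 point per array, with the mean and SD of each group (n = 3); the axes do not start at 0. The culture arrays are the lowest 3 of 15 for mtrr-1 and mthf-1, while the groups overlap for most other probe sets.

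Of the 9 genes, 2 fell past the test in the culture, both of the step that remakes methionine. Of all probe sets tested 1.19% fell in this way, and the calls of both genes were lost under some settings given below. The gene metr-1 (R03D7.1), methionine synthase, which carries the methyl group from folate through vitamin B12 to homocysteine, had signals of 2153, 1960 and 1903 in the culture, against 2608, 2649 and 2573 in Z-medium. As in 11.3% of all probe sets tested, the 3 culture arrays lay below the 3 Z-medium arrays with no overlap. This was a fall to 0.767-fold (95% interval 0.671 to 0.877; log2 change -0.38 ± 0.09, SE; limma adjusted p = 0.0491).

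The gene mtrr-1 (C01G6.6), methionine synthase reductase, which restores the oxidised vitamin B12 of methionine synthase, had signals of 1979, 2089 and 1992 in the culture, against 2834, 2452 and 2833 in Z-medium. Its 3 culture arrays were the lowest of all 15, a pattern found in 3.61% of the probe sets tested. The fall was to 0.748-fold (95% interval 0.667 to 0.839; log2 change -0.42 ± 0.08; adjusted p = 0.0132). The group means were 2020 ± 60.4 in the culture, 2706 ± 220 in Z-medium, 2552 ± 170 in October, 2441 ± 154 in August and 2568 ± 48.9 in water (SD, n = 3). In order from high to low, Z-medium, water, October and August each overlapped their neighbour, and the culture overlapped no other group.

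The third gene of this step, mthf-1 (C06A8.1), methylenetetrahydrofolate reductase, makes the methyl folate that methionine synthase uses. Its signals were 2145, 2125 and 2087 in the culture, against 2628, 2351 and 2485 in Z-medium. These culture arrays too were the lowest 3 of 15, and the value was 0.852-fold (95% interval 0.755 to 0.963; log2 change -0.23 ± 0.08). It did not pass over all probe sets (adjusted p = 0.196). The group means of mthf-1 were 2119 ± 29.9 in the culture, 2488 ± 139 in Z-medium, 2433 ± 193 in October, 2416 ± 233 in August and 2516 ± 111 in water (SD, n = 3). From high to low, water, Z-medium, October and August each overlapped their neighbour, and the culture overlapped none.

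The calls of metr-1 and mtrr-1 rested on small margins. For metr-1 the adjusted p was 0.146, 0.124 and 0.0889 with Z-medium replicate 1, 2 or 3 left out, and 0.153 and 0.186 with culture replicate 2 or 3 left out, so the call was lost each time. For mtrr-1 it was lost when Z-medium replicate 1 (0.0714) or 3 (0.0527), culture replicate 3 (0.0564) or all 5 replicate 1 arrays (0.0539) were left out. A fit of the culture and Z-medium arrays alone gave an adjusted p of 0.076 for metr-1 and 0.0697 for mtrr-1. The metr-1 call was also lost without the filter on low signals (0.0737), with 32 added to each signal (0.0502) and without the variance trend (0.0977). Centring each array on its median, which moved the median of all probe sets in this comparison to 0.11 from 0.00 on the log2 scale, left log2 changes of -0.27 for metr-1 (adjusted p = 0.168) and -0.31 for mtrr-1 (adjusted p = 0.0982). Neither gene changed sign in any of the 16 alternative settings run. Without the 5 replicate 1 arrays metr-1 stayed past the test (log2 change -0.44, adjusted p = 0.0136).

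The group means of metr-1 were 2005 ± 131 in the culture, 2610 ± 38.4 in Z-medium, 2315 ± 269 in October, 2449 ± 235 in August and 2386 ± 113 in water (SD, n = 3). From high to low the order was Z-medium, August, water, October and culture, with each neighbour overlapping. The 3 Z-medium arrays of metr-1 were above the 3 water arrays (2501, 2275 and 2382), with a log2 difference of 0.13 ± 0.09 that did not pass (adjusted p = 1.00). No overlap with higher Z-medium arrays was found for 3.43% of all tested. Set against water, a comparison chosen after seeing the data, the culture value of metr-1 was -0.25 ± 0.09 (adjusted p = 0.189). For mtrr-1 it was -0.35 ± 0.08 (adjusted p = 0.0372) and for mthf-1 -0.25 ± 0.08 (adjusted p = 0.163).

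**Figure D2:**
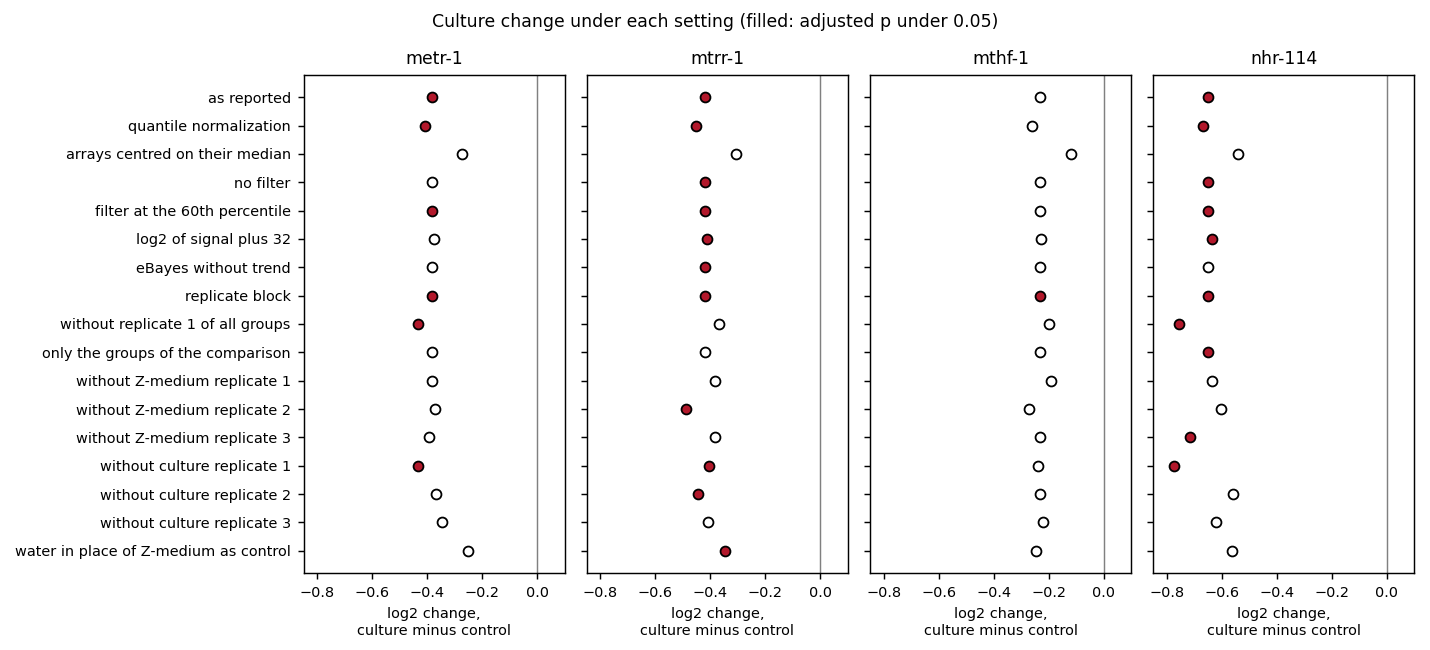
Log2 change in the culture of metr-1, mtrr-1, mthf-1 and nhr-114 as reported and under 16 other settings (rows); filled points had an adjusted p under 0.05. All points lie below 0, with metr-1 between -0.44 and -0.25 and mtrr-1 between -0.49 and -0.31, and whether they are filled differs between settings.

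**Figure D3:**
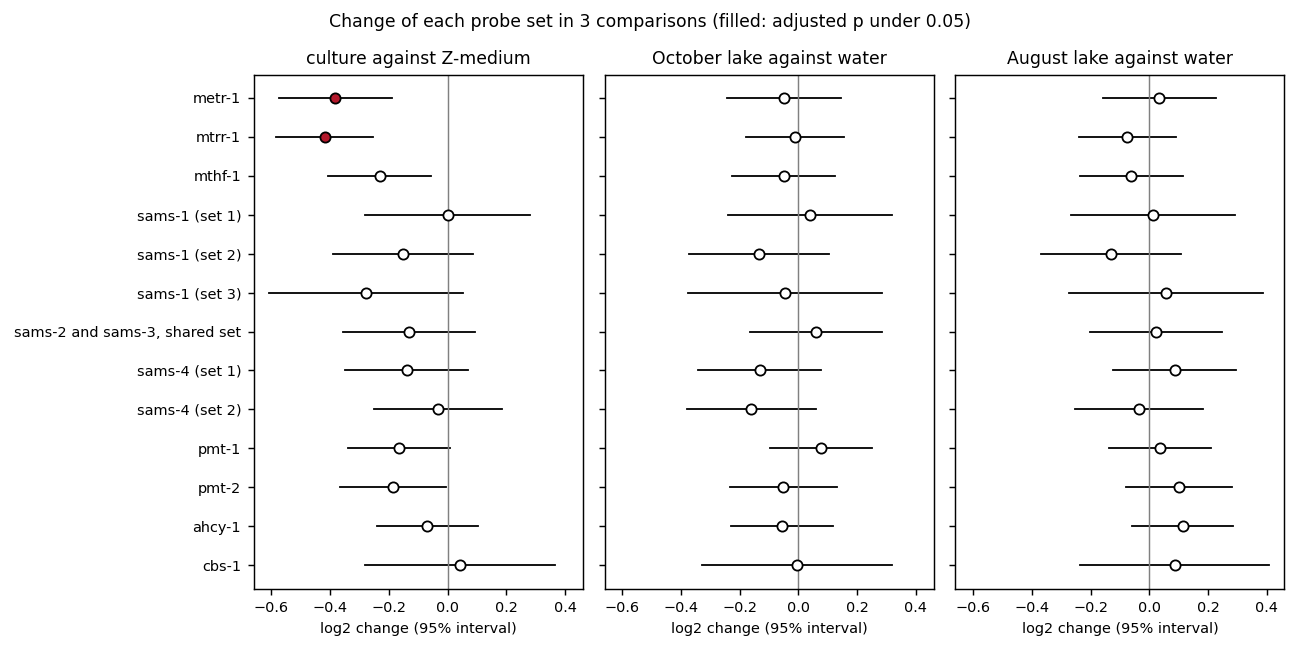
Log2 change of each member probe set, with its 95% interval, in the culture against Z-medium and in the October and August lake samples against water; filled points passed at an adjusted p under 0.05. Only metr-1 (-0.38) and mtrr-1 (-0.42) are filled, both in the culture panel, and all lake intervals include 0.

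SAM synthetases join methionine to adenosine, and their probe sets did not pass in the culture. For sams-1 (C49F5.1), the synthetase whose loss is known to lower phosphatidylcholine and raise stored fat in worms, the brightest probe set read 11567, 8905 and 8566 in the culture, against 9968, 11266 and 7859 in Z-medium. The arrays of the culture and of Z-medium overlapped, and the fold was 1.00 (95% interval 0.824 to 1.21; adjusted p = 1.00). The other 2 sams-1 probe sets had log2 changes of -0.15 ± 0.11 (adjusted p = 0.536) and -0.28 ± 0.16 (adjusted p = 0.406).

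The 3 sams-1 probe sets did not follow each other closely. Over the 15 arrays the correlation of the brightest with the second was -0.02, that of the brightest with the dimmest 0.54 and that of the second with the dimmest 0.40, as a description across arrays that share groups and replicate numbers. Replicate 1 was above the mean of replicates 2 and 3 in 5 of 5 groups for the brightest and the dimmest and in 4 of 5 for the second.

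The brighter sams-4 (C06E7.3) probe set, of another SAM synthetase, read 2761, 2578 and 2421 in the culture, against 2664, 2801 and 3086 in Z-medium (log2 change -0.14 ± 0.10, adjusted p = 0.518). Its dimmer probe set read 2700, 2150 and 1983 in the culture, against 2114, 2510 and 2328 in Z-medium (-0.03 ± 0.10, adjusted p = 0.902). Both overlapped between the groups. The probe set shared by sams-2 and sams-3 had signals of 1144, 1327 and 1088 in the culture, against 1328, 1177 and 1390 in Z-medium, again with overlap (-0.13 ± 0.11, adjusted p = 0.577).

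The 2 phosphoethanolamine methyltransferases use SAM to build phosphocholine, pmt-1 (ZK622.3) adding the first methyl group and pmt-2 (F54D11.1) the later ones. For pmt-1 the signals were 5152, 4125 and 5056 in the culture, against 5008, 5629 and 5369 in Z-medium (log2 change -0.17 ± 0.08, adjusted p = 0.352). For pmt-2 they were 11822, 10198 and 9793 in the culture, against 11318, 13065 and 11754 in Z-medium (-0.19 ± 0.09, adjusted p = 0.317). In both genes culture replicate 1 lay within the Z-medium range, and in pmt-1 so did replicate 3. The pmt-1 value rested on culture replicate 2, without which it was -0.06 (adjusted p = 0.756). Neither passed, and the 95% intervals ran from 0.791 to 1.01-fold for pmt-1 and from 0.775 to 0.997-fold for pmt-2.

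Removal of the products was measured by 2 genes. The gene ahcy-1 (K02F2.2), S-adenosylhomocysteine hydrolase, which clears the product that inhibits methyltransferases, had signals of 18422, 14820 and 14835 in the culture, against 16202, 17492 and 16500 in Z-medium. Culture replicate 1 held the highest value of all 15 arrays and the other 2 culture arrays lay below all Z-medium arrays, so the change of -0.07 ± 0.08 (adjusted p = 0.721) joined values on both sides of the control. Without culture replicate 1 it was -0.17 (adjusted p = 0.178). The gene cbs-1 (ZC373.1), cystathionine beta-synthase, which commits homocysteine to cysteine, had signals of 193, 224 and 162 in the culture, against 189, 161 and 211 in Z-medium, with a log2 change of 0.04 ± 0.15 (adjusted p = 0.923).

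Over the 12 member probe sets, 2 fell, 0 rose and 10 did not pass in the culture, while 1.19% of all probe sets tested fell and 0.355% rose. A log2 change below 0 was seen in 11 of 12 (49.2% of all tested), and the median was -0.16 against 0.00 over all tested. The 11 include the brightest sams-1 probe set, whose change was 0.00 and ran from -0.14 to 0.12 over the 16 alternative settings. No overlap with lower culture arrays was found for 3 (11.3% of all tested): metr-1, mtrr-1 and mthf-1. An unadjusted p under 0.05 with a lower value was found for 4 (10.1% of all tested), those 3 genes and pmt-2. With arrays centred on their median the count past the test was 0 and the median -0.05, and ahcy-1 (0.04), the dimmer sams-4 probe set (0.08) and the brightest sams-1 probe set (0.11) lay above 0. With that setting 168 of all probe sets passed, 36.9% of them higher, against 209 and 23% with the deposited scaling.

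Some tissue markers also differed between the culture and Z-medium, and their part in the member results was not tested. The summed signal of 10 of 10 oocyte and eggshell markers was 72144 to 77271 in the culture, against 61642 to 71430 in Z-medium. These ranges did not overlap, but their nearest arrays lay close together. The August sums, 62529 to 73484, overlapped those of the culture. Sperm markers (6 of 9 tested) summed to 6395, 3994 and 3359 in the culture, against 9935, 6543 and 4972 in Z-medium. Hypodermis and cuticle markers (7 of 8) summed to 41138, 40954 and 27539 in the culture, against 40828, 43361 and 43617 in Z-medium. Values are in order of replicate number, and both lists overlapped between the groups. The low cuticle sum was that of 1 array, culture replicate 3. For intestine markers (9 of 9) the sums were 42139 to 53364 in the culture and 45302 to 48881 in Z-medium, and for muscle markers (6 of 6) 26565 to 34291 in the culture and 30182 to 32832 in Z-medium. Both of these overlapped. Of the muscle probe sets 12 of 13 had log2 changes below 0 (median -0.16), as had 8 of 11 intestine (median -0.14) and 9 of 9 cuticle probe sets (median -0.63). Past the test, 1 of 11 intestine, 2 of 9 cuticle and 1 of 13 muscle probe sets fell in the culture, against 1.19% of all tested. None of the 6 sperm probe sets (median log2 change -0.68) or the 16 oocyte probe sets (median 0.18) passed in limma.

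The lake samples gave no call among the members. In August 0 of the 12 probe sets passed in limma (0.00739% of all tested, 1 probe set), and 0 had an unadjusted p under 0.05 (3.05% of all tested). The log2 changes ran from -0.13 to 0.11 with a median of 0.04, against -0.01 over all tested, and 4 of 12 were below 0 (51.5% of all tested). The outermost 95% limits of the 12 were 0.774 and 1.33-fold. One probe set was higher with no overlap (3.33% of all tested), that of ahcy-1, with signals of 17816, 18218 and 16501 in August, against 15989, 16374 and 16137 in water. Its log2 change was 0.11 ± 0.08 (adjusted p = 1.00).

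In October 0 of the 12 passed in limma (0% of all tested), and 0 had an unadjusted p under 0.05 (2.11% of all tested). The log2 changes ran from -0.16 to 0.08 with a median of -0.05, against 0.00 over all tested, and 10 of 12 were below 0 (48.9% of all tested). The outermost 95% limits were 0.769 and 1.25-fold. The dimmer sams-4 probe set was lower with no overlap, at 1886, 1884 and 2093 in October, against 2161, 2209 and 2175 in water (log2 change -0.16 ± 0.10, adjusted p = 1.00), while 3.81% of all tested were lower in this way. The pmt-1 probe set was higher with no overlap, at 5256, 5304 and 5267 in October, against 5073, 4905 and 5024 in water (0.08 ± 0.08, adjusted p = 1.00), where 3.75% of all tested were. Both lake comparisons share the 3 water arrays.

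The genes of the methionine step had lake values near the control. For metr-1 the signals were 2625, 2148 and 2173 in October and 2706, 2248 and 2392 in August, against 2501, 2275 and 2382 in water. For mtrr-1 they were 2720, 2556 and 2380 in October and 2576, 2473 and 2274 in August, against 2516, 2613 and 2575 in water. Both genes overlapped between each lake group and water, with log2 changes between -0.08 and 0.03. For mthf-1 the changes were -0.05 ± 0.08 in October and -0.06 ± 0.08 in August.

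The lake signals of the other members overlapped those of water, apart from the 3 probe sets with no overlap named above. The brightest sams-1 probe set read 10211, 8865 and 8684 in October and 9455, 8506 and 9228 in August, against 9814, 9132 and 8076 in water. For pmt-2 the signals were 10587, 11383 and 10491 in October and 11413, 13214 and 11509 in August, against 10659, 11436 and 11547 in water. The groups overlapped in both genes. For cbs-1, the member with the smallest signals, they were 164, 170 and 181 in October and 203, 188 and 159 in August, against 172, 166 and 178 in water, again with overlap.

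Between the lake samples, October against August, 0 of 12 passed in limma (0.0148% of all tested) and 1 had an unadjusted p under 0.05, lower in October (0.954% of all tested). That was the brighter sams-4 probe set, with signals of 2626, 2382 and 2682 in October, against 2739, 3381 and 2851 in August (log2 change -0.22 ± 0.10, adjusted p = 1.00). It, ahcy-1 (-0.17 ± 0.08) and pmt-2 (-0.15 ± 0.09) had no overlap, with the October arrays lower, as had 3.86% of all tested. Between the 2 controls, Z-medium against water, 0 of 12 passed in limma (0.0222% of all tested) and 0 had an unadjusted p under 0.05 (2.34% of all tested). The log2 changes ran from -0.09 to 0.13, and 2 of 12 were below 0 (49.3% of all tested).

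Whether the culture change differed from the lake changes was tested directly, as the culture change minus the mean of both lake changes. The difference was -0.38 ± 0.12 for metr-1 (adjusted p = 0.366) and -0.38 ± 0.10 for mtrr-1 (adjusted p = 0.232). For mthf-1 it was -0.18 ± 0.11 (adjusted p = 0.687). None of the 12 passed in limma, 2 had an unadjusted p under 0.05, both lower, while 0.266% of all tested passed and 5.56% were lower at that unadjusted level. With the replicate number as a block, which the data bear out for August against water and not for the other comparisons in this contrast, metr-1 passed (adjusted p = 0.0364) and mtrr-1 did not (adjusted p = 0.0521). Without the block the falls of metr-1 and mtrr-1 in the culture are not shown to differ from the lake values.

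Over the 15 arrays, and with 1 probe set per gene, the median correlation of the 36 pairs of member genes was 0.22, and 28 pairs were above 0. After the group means were taken off the median was 0.13 and 24 of 36 were above 0. Over all pairs of tested probe sets the medians were 0.00 in both cases, with 50% and 50.2% of pairs above 0. The pair metr-1 and mthf-1 correlated at 0.86, or at 0.82 after the group means were taken off, and mtrr-1 and mthf-1 at 0.80, or 0.49. For metr-1 and mtrr-1 the values were 0.76 and 0.29, so most of that likeness lay between groups. The pair pmt-2 and ahcy-1 correlated at 0.76, or 0.68. The lowest pair was pmt-1 and cbs-1 at -0.60. These correlations are descriptions over arrays that share replicate numbers.

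The genes with the pattern most like the mean of the 9 members over the 15 arrays were col-159, a collagen gene (r = 0.888), gtl-1 (0.888), F36H12.3 (0.879), unc-15, the paramyosin gene of muscle (0.877), and tyr-4 (0.874), a tyrosinase gene. Among 12817 probe sets compared, 76 had a correlation above 0.8. The correlations stayed between 0.774 and 0.891 for these 5 after the group means were taken off. They were then computed over all 15 arrays together, and replicate 1 differences shared by the groups remain in them.

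Around the cycle, 7 lists of related genes held 2 genes that passed in any of the 3 exposure comparisons, both in the culture. That is 2 of 129 probe sets, or 1.55%, near the 1.54% of all probe sets called in the culture. In the vitamin B12 and propionate list, 1 of 25 probe sets (18 genes) fell, 0 rose and 24 did not pass, with a median log2 change of -0.07. It was nhr-114, a nuclear hormone receptor known in C. elegans to activate methionine and SAM cycle genes when flux through the cycle is low. Its signals were 1157, 860 and 935 in the culture, against 1572, 1640 and 1401 in Z-medium. The 3 culture arrays were the lowest of all 15, and the fall was to 0.636-fold (log2 change -0.65 ± 0.14, adjusted p = 0.0304).

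The group means of nhr-114 were 984 ± 154 in the culture, 1538 ± 123 in Z-medium, 1390 ± 42.8 in October, 1425 ± 135 in August and 1465 ± 330 in water (SD, n = 3). With Z-medium replicate 1 or 2 left out, the adjusted p of nhr-114 was 0.109 or 0.106, and with culture replicate 2 or 3 left out it was 0.142 or 0.115. With median centring the log2 change was -0.54 (adjusted p = 0.101), without the variance trend the adjusted p was 0.0649, and against water the change was -0.56 (0.0632). It passed without the 5 replicate 1 arrays (-0.76, adjusted p = 0.0114). The culture change of nhr-114 minus the mean lake change was -0.62 ± 0.19, which did not pass (adjusted p = 0.316).

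Other genes of that list had values on both sides of 0. The acyl-CoA dehydrogenase gene acdh-1, named here after its values were seen because its expression is known to drop with vitamin B12, had signals of 11573 ± 1263 in the culture and 12412 ± 825 in Z-medium (SD, n = 3). Its log2 change was -0.11 ± 0.08 (adjusted p = 0.535). In the lake samples it was -0.10 ± 0.08 in October and 0.03 ± 0.08 in August, each with an adjusted p of 1.00.

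In the phosphatidylcholine list, 1 of 24 probe sets rose and 0 fell, with a median of -0.09 over the list. The probe set was that of chdp-1, which encodes a protein named for its calponin homology domain and is not an enzyme of that pathway, so no phosphatidylcholine enzyme of the list passed. Its signals were 4753, 5508 and 5191 in the culture, against 3908, 3895 and 3358 in Z-medium (log2 change 0.47 ± 0.09, adjusted p = 0.0151). The call was lost when Z-medium replicate 3 (adjusted p = 0.0597), culture replicate 2 (0.0832) or culture replicate 3 (0.0614) was left out and in a fit of the culture and Z-medium arrays alone (0.0604). Its dimmer probe set did not pass (0.14, adjusted p = 0.57), and against water, where the signal averaged 4472 ± 361, the value was 0.20 (adjusted p = 0.281).

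The remaining 5 lists held no probe set past the limma test in the culture. Folate cycle genes had 14 probe sets with a median log2 change of -0.08 and a range of -0.32 to 0.31. Transsulfuration, cysteine and glutathione genes had 20, with a median of -0.02 and a range of -0.70 to 0.23. SAM-dependent methyltransferases had 38, with a median of 0.04, and the range ran from -0.36 to 0.50. Polyamine synthesis genes had 5 (median -0.14), and the other methionine cycle and SAM synthesis genes had 3 (median -0.18). In October and in August 0 probe sets of the 7 lists passed, with a smallest adjusted p of 1.00.

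**Figure D4:**
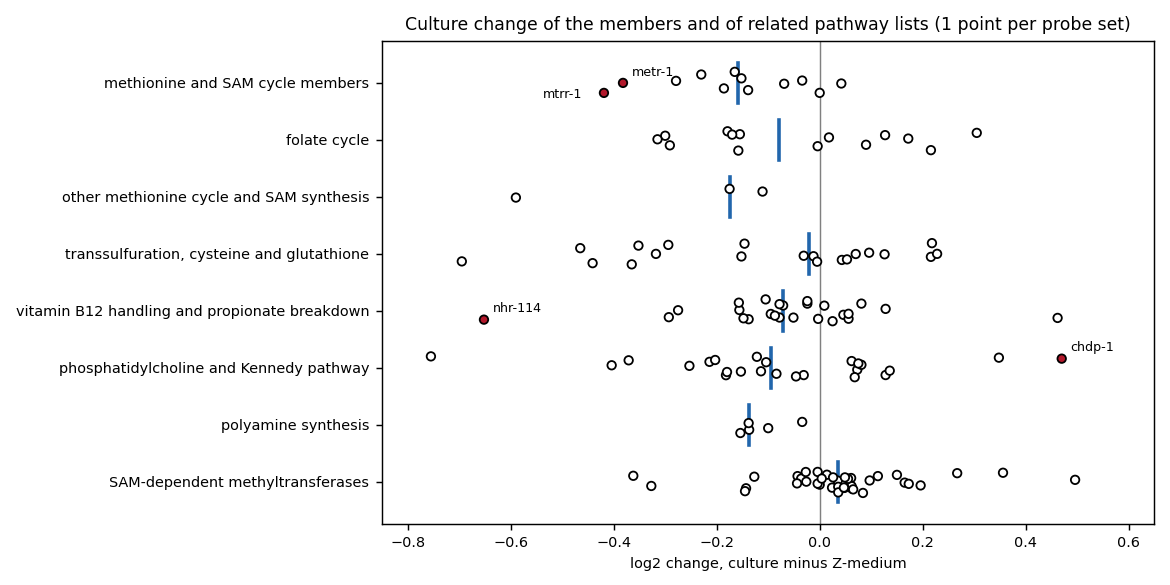
Log2 change in the culture against Z-medium of the 12 member probe sets (top) and of the probe sets of 7 related lists, 1 point each; blue bars are list medians and filled points passed at an adjusted p under 0.05. The passing points are mtrr-1, metr-1, nhr-114 and chdp-1; the members' median lies at -0.16.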

How the data were processed

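Each deposited value is the linear signal intensity of a probe set, computed by the authors with MAS5 (Affymetrix Expression Console 1.2.0.20), per the submitters' processing notes; no genome build is given in the sources used here. The mean of each array after trimming 2% at each end was 500.123 to 500.137, so the arrays had been scaled to 1 level. MAS5 scaling to a common mean makes each value relative to the whole array. Detection calls and raw scans were not used here.

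The deposited signals were log2-transformed without an offset. The 77 control probe sets were left out and probe sets were tested where their mean over the 15 arrays reached the 40th percentile (log2 of 5.86, or 57.9 in signal). All 15 arrays entered 1 model of group means in limma 3.58.1 (R 4.3.3; lmFit, eBayes with trend, 10 residual degrees of freedom), with contrasts adjusted by Benjamini-Hochberg over all 13529 probe sets and called at an adjusted p under 0.05. Errors are SE for changes and SD over 3 arrays for signals. With 3 arrays against 3 an exact permutation test cannot go below 0.1. The model was tested on simulated data. For arrays, their number limits the precision.

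Symbols came from the array annotation, updated through gene IDs (20701 of 20766 probe sets with 1 symbol matched; 887 had several and 895 none). Each replicate was labelled a biological replicate. The rule named all member probe sets and each listed gene past the test in an exposure comparison, plus the 5 genes most like the members' mean. Members, lists and rules were chosen with earlier results of these data known. In 1 list chdp-1 and pcp-4, and in another pdhk-2, were entered without being enzymes of it. Not every other listed gene encodes an enzyme either, as with the receptor gene nhr-114.

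Same-numbered arrays deviated together by more than 0.1 in every pair for August against water (correlations 0.534, 0.2 and 0.311), Z-medium against water and October against August, which the rule reads as pairs, and not for October against water or the culture against Z-medium. The replicate block changed no member call in those 3 paired comparisons.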

Additional observations from a re-analysis of the deposited data

Results flagged for a closer look

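For pmt-1 the 3 culture arrays lay below the Z-medium mean while the 3 October arrays lay above the water mean, and the culture change minus the October change was -0.24 on the log2 scale. For pmt-2 the 3 culture arrays lay below the Z-medium mean and the 3 August arrays above the water mean, with a culture change minus August change of -0.29. Over all tested probe sets the same pattern was found in 3.44% for October and 2.62% for August. The pmt-1 culture change was -0.06 without culture replicate 2, against -0.17 with it. These single differences were not tested. Against the mean of both lake changes, which was tested, the differences were -0.22 ± 0.11 for pmt-1 (limma adjusted p = 0.603) and -0.21 ± 0.11 for pmt-2 (adjusted p = 0.642).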

How the results depend on the processing

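In the culture, the count of 2 member probe sets past the test held under quantile normalization, the 60th percentile filter and with the brightest probe set per gene alone. It was 0 with arrays centred on their median and with only the compared groups in the fit, and 1 without a filter, with log2 of signal plus 32, with eBayes without trend and with water as control, the last chosen after seeing the data. Leaving out arrays gave 0 to 2. With a replicate block it was 3, mthf-1 joining at an adjusted p of 0.0382, and the culture minus lake count became 1 (metr-1, adjusted p = 0.0364). The numbers did not pair the culture with Z-medium (correlations 0.357, -0.033 and 0.263; 4 of 6 arrays correlated best with their own number) or October with water (0.467, 0.064 and 0.138; 2 of 6). The block changed no other member call. Over all probe sets the culture count was 209, and 89 to 1245 under the alternatives. The counts of 0 in the August, October, October against August and Z-medium comparisons stayed 0 under all 16 alternatives of each. The median member change ran from -0.22 to -0.05 in the culture, -0.10 to -0.01 in October and -0.01 to 0.07 in August. The cause of the lost calls was not tested. Precision is limited by 3 arrays a group. In simulated data for the culture comparison (13529 probe sets), 23% of changes of 0.4 on the log2 scale were recovered. For changes of 1 it was 84%. The simulated noise was independent between arrays, without the replicate 1 differences, and the changed probe sets were drawn from all tested. These shares are therefore not those of the member probe sets.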
